A study of Mus musculus with 4 samples.

Results

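The genes described here are 10 that are best known from dendritic and other myeloid cells: Batf3, Irf8, Flt3, Xcr1, Itgax, Tyrobp, Fcer1g, Mpeg1, Plbd1 and Plek. They were measured in sorted mouse T cells, as 10 of 12393 genes that could be named on the arrays. Every probe set (the group of short probes that reads 1 transcript) that the platform annotation gives to 1 of these symbols alone was taken, which made 13 probe sets: 3 for Plek, 2 for Irf8 and 1 for each of the other genes. The genes were picked from these same arrays because several of them stood out on the array labelled wildtype CD8, so the values below are a description and none was tested.

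The study set T cells of Gfi1 knockout C57BL/6 mice beside those of wildtype C57BL/6 mice; Gfi1 encodes a transcriptional repressor of blood cells. The 4 untreated groups were CD8 T cells of knockout mice, CD8 T cells of wildtype mice, CD4 T cells of knockout mice and CD4 T cells of wildtype mice, all labelled as low in CD44 and sorted from spleen by flow cytometry after staining for CD4, CD8 and CD44. Each group had 1 Affymetrix array with the RNA of 2 mice pooled, so there was no spread between animals to set a difference against, and how precise any value is depends on these few arrays. The sample titles also end in N for the knockout and M for the wildtype groups, letters that the labels do not explain, and they give no age, sex or description of the knockout allele.

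The deposited values are signal intensities. Signals under 93.9, the 40th percentile of all values other than control probes, were treated as not measured and set to that floor, so a fold against an array set to the floor is given as "at least". Between 58.4% and 61.6% of probe sets lay above the floor on each array. Gfi1 read 2447 on the array labelled knockout CD8 against 1158 on wildtype CD8, and 2891 on knockout CD4 against 2272 on wildtype CD4, so its probe set does not mark the knockout, and where it lies relative to the deleted part is not stated in the labels. Cd44 read 252 on knockout CD8 against 5740 on wildtype CD8, and 196 on knockout CD4 against 8136 on wildtype CD4, which goes against the label of low CD44 for both wildtype arrays. Genotype is therefore given as labelled throughout, and any direction between the labelled genotypes cannot be told apart from this difference in Cd44. The subset labels matched Cd8a, at 16639 on knockout CD8 and 15920 on wildtype CD8, with neither CD4 array above the floor, and Cd4, at 5470 on knockout CD4 and 5901 on wildtype CD4, with neither CD8 array above it. Cd8b1 read 25715 on knockout CD8 and 26222 on wildtype CD8, and was above the floor on both CD4 arrays, at 970.5 on knockout CD4 and 312.1 on wildtype CD4. T cell genes were present on every array: of 11 listed T cell genes all 11 lay above the floor, and 0 stood out on wildtype CD8. The 18S ribosomal RNA control for the 5' end was uneven, at 525 on knockout CD8 against 7228 on wildtype CD8, and 3562 on knockout CD4 against 7147 on wildtype CD4. Those for the 3' end and the middle were also lower on knockout CD8 (582.3 and 395.6) than on wildtype CD8 (1481.7 and 1556.7). Actin and Gapdh controls varied less, with the 5' actin control at 34313 on knockout CD8 against 40735 on wildtype CD8. The part of the uneven 18S controls in the results below was not tested.

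Dendritic cells take up antigen and show it to T cells on MHC molecules. The type 1 conventional dendritic cells of mouse spleen depend on the transcription factors BATF3 and IRF8, develop under signals from the cytokine receptor FLT3, carry the chemokine receptor XCR1 and share the integrin CD11c (Itgax) with other dendritic cells. Tyrobp and Fcer1g encode small membrane adaptors with an ITAM, the tyrosine motif through which many receptors of myeloid and natural killer cells signal. Mpeg1 encodes perforin-2, a pore-forming protein of phagocytes, Plbd1 a phospholipase B domain protein, and Plek encodes pleckstrin, which protein kinase C phosphorylates in platelets and leukocytes. Itgax, Irf8 and both adaptor genes are also known from activated T cells or natural killer cells, so none of them by itself names a cell type.

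On the array labelled wildtype CD8, 9 of the 10 genes exceeded every other array by at least 2-fold, against 0.888% of all 12393 genes. The exception was Fcer1g. Because the genes were chosen for this pattern, the count says how completely they show it and nothing more. All 10 were above the floor on wildtype CD8, 2 on knockout CD8 (Irf8 and Plek), 5 on knockout CD4 and 6 on wildtype CD4. In RNA of bulk cells, fewer cells of a type and less RNA per cell cannot be told apart.

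**Figure D1:**
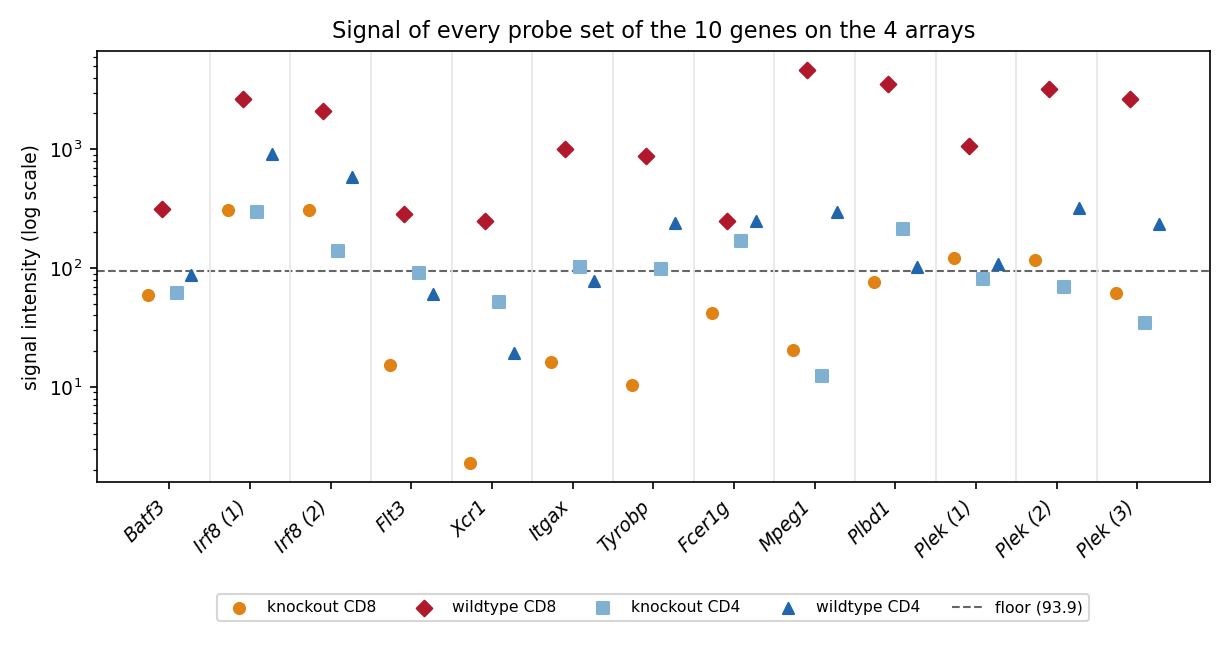
Signal intensity (log scale) of the 13 probe sets on the 4 arrays, 1 point per array, with the floor of 93.9 as a dashed line; numbers in brackets separate probe sets of 1 gene. The wildtype CD8 point is the highest for all probe sets, with Fcer1g almost level between wildtype CD8 (250.8) and wildtype CD4 (248.4).

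Plbd1, Mpeg1, Plek and Itgax stood furthest from the other arrays. Plbd1 read 77.0 on knockout CD8 against 3572 on wildtype CD8, and 215.3 on knockout CD4 against 102.9 on wildtype CD4. Mpeg1 read 20.5 on knockout CD8 against 4610 on wildtype CD8, and 12.4 on knockout CD4 against 294.3 on wildtype CD4. Wildtype CD8 was thus the high array for both, with wildtype CD4 second for Mpeg1 and knockout CD4 second for Plbd1. The probe set of Plek used for the gene read 116.6 on knockout CD8 against 3196 on wildtype CD8, and 69.0 on knockout CD4 against 319.2 on wildtype CD4. Itgax read 16.3 on knockout CD8 against 1002.5 on wildtype CD8, and 102.7 on knockout CD4 against 77.9 on wildtype CD4. Outside wildtype CD8, Itgax was therefore below the floor or, on knockout CD4, just above it.

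Set against the highest of the other 3 arrays, wildtype CD8 was 16.6-fold higher for Plbd1, 15.7-fold for Mpeg1, 10.01-fold for Plek and 9.76-fold for Itgax. Ranked by this margin among the 7810 genes above the floor on wildtype CD8, these were numbers 2, 3, 8 and 9. The stretches of 250 bases before the transcription start of these 4 genes are shown because these genes had the largest margins of the 10; they are from RefSeq (GRCm38.p6), 5′ to 3′ on the strand of the gene, for Itgax from chr7:128129300-128129549 (plus strand), for Mpeg1 from chr19:12460520-12460769 (plus), for Plbd1 from chr6:136661894-136662143 (minus) and for Plek from chr11:17008719-17008968 (minus). Capitals mark GGAA, the core that ETS factors such as PU.1 bind, on either strand (TTCC on the other), and in Itgax also TGANTCA, the site type of AP-1 and BATF factors.
Itgax: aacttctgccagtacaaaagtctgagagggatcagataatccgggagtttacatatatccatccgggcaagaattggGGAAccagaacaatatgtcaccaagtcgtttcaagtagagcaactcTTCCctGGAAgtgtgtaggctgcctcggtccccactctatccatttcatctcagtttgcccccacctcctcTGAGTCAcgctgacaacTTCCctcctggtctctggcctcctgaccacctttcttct
Mpeg1: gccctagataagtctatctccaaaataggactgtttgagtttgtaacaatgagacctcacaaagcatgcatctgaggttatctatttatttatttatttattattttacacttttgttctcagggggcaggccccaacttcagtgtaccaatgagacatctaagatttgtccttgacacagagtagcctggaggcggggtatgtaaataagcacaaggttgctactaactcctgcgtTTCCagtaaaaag
Plbd1: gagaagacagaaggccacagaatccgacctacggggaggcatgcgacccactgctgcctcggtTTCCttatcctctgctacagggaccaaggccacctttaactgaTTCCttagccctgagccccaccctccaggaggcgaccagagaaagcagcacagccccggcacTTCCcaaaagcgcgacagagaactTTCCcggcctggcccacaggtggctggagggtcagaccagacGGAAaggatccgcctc
Plek: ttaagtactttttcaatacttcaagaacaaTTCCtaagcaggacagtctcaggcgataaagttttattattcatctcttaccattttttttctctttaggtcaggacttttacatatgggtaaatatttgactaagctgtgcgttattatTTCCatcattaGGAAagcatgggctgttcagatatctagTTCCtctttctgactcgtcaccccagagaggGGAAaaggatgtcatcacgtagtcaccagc

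The search covered the same 250 bases of 10 RefSeq starts, which matched 9 of the 10 genes, with 2 starts for Irf8, and of all 32851 starts in the table. GGAA was found before all 10 starts, with 5 matches each for Plbd1, Plek and Fcer1g, 4 for Itgax and 1 for Mpeg1; 93.4% of all starts hold it, with a median of 3 matches. TGANTCA was found once, 56 bases before the start of Itgax, and in 6.75% of all starts; it shares no base with a GGAA match there. GAGGAAGT, a longer PU.1 type motif that holds the GGAA core, was searched on both strands too and found before 0 of the 10 starts, with 2.44% of all starts holding it. A match is a description of these letters and not of binding.

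**Figure D2:**
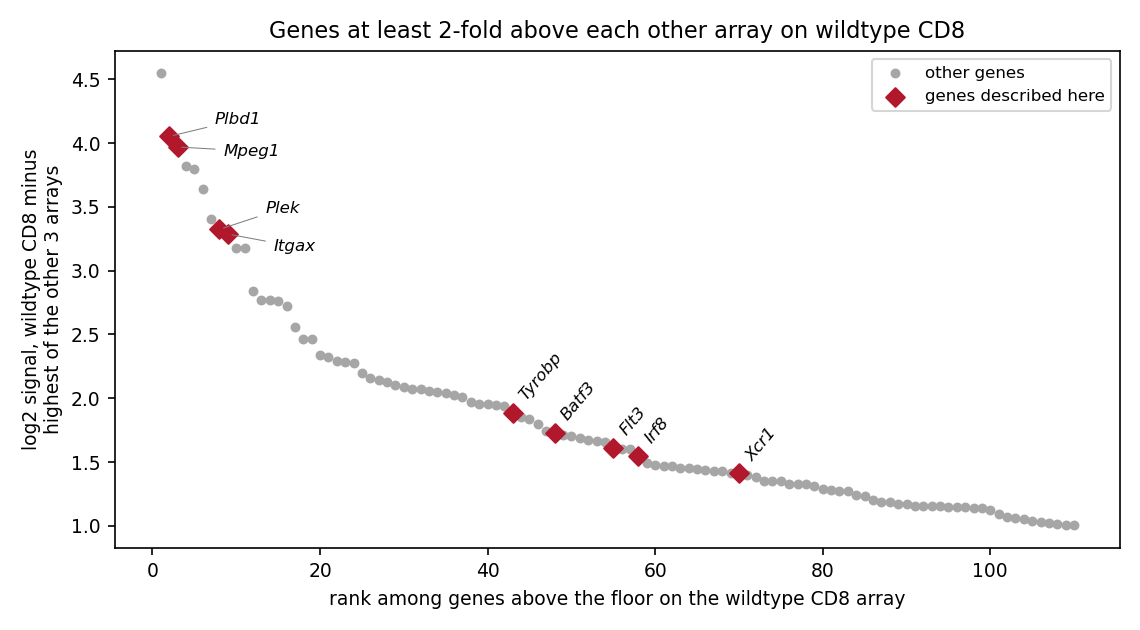
Log2 signal on wildtype CD8 minus the highest of the other 3 arrays (vertical) against rank (horizontal) for the 110 genes that exceed every other array by at least 2-fold. Red diamonds are 9 of the 10 genes described here and grey points the other 101 genes; 4 of the 9 lie among the first 9 ranks and 5 between rank 43 and rank 70.

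Of the transcription factor genes, Irf8 was measured on every array. Its probe set used for the gene read 309.1 on knockout CD8 against 2672 on wildtype CD8, and 297.6 on knockout CD4 against 912.4 on wildtype CD4. Both wildtype arrays were above both knockout arrays, and wildtype CD8 was 2.93-fold above wildtype CD4. The second probe set of Irf8 gave the same order at the top, with 305.8 on knockout CD8 against 2096 on wildtype CD8, and 139.1 on knockout CD4 against 585.6 on wildtype CD4. Batf3 read 58.9 on knockout CD8 against 311.7 on wildtype CD8, and 62.3 on knockout CD4 against 88.1 on wildtype CD4. It was thus below the floor everywhere but on wildtype CD8, where it was 3.32-fold above the floor.

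The receptor genes Flt3 and Xcr1 had the same pattern of measured arrays as Batf3. Flt3 read 15.2 on knockout CD8 against 287.0 on wildtype CD8, and 91.0 on knockout CD4 against 60.8 on wildtype CD4. Xcr1 read 2.3 on knockout CD8 against 249.9 on wildtype CD8, and 51.9 on knockout CD4 against 19.5 on wildtype CD4. For both, wildtype CD8 was the only array above the floor, by at least 3.06-fold for Flt3 and at least 2.66-fold for Xcr1. Xcr1 lay at the 51.4th percentile of all probe sets on wildtype CD8, Flt3 at the 53.3rd and Batf3 at the 54.3rd, so these calls rest on signals in the middle of the array's range. With the floor raised to the 60th percentile they were lost, as were those of Tyrobp and Fcer1g between the CD8 arrays.

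The ITAM adaptor genes differed from each other. Tyrobp read 10.3 on knockout CD8 against 882.9 on wildtype CD8, and 97.5 on knockout CD4 against 238.5 on wildtype CD4. Wildtype CD8 was 3.70-fold above wildtype CD4, the next array. Fcer1g read 42.2 on knockout CD8 against 250.8 on wildtype CD8, and 167.6 on knockout CD4 against 248.4 on wildtype CD4. Its signal on wildtype CD8 and on wildtype CD4 differed by 1.01-fold, which left it at rank 1763 by margin, and the low array was knockout CD8.

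The 3 probe sets of Plek and the 2 of Irf8 were designed on the same transcript entry for each gene, so they are not separate support. They gave wildtype CD8 over the highest other array at 8.76-fold, 10.01-fold and 11.3-fold for Plek, and at 2.93-fold and 3.58-fold for Irf8. The second array in the order was wildtype CD4 for both probe sets of Irf8 and for 2 of the 3 of Plek; the other Plek probe set read 120.5 on knockout CD8 and 108.7 on wildtype CD4, and 81.0 on knockout CD4.

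Between the CD8 arrays, all 10 genes were at least 2-fold lower on knockout CD8, against 2.77% of all genes, and 0 were higher, against 0.791%; the choice of the genes fixes this direction. Mpeg1 was at least 49.1-fold lower and Plbd1 at least 38.0-fold lower. Plek was 27.4-fold lower and Irf8 8.64-fold lower, both with the 2 arrays above the floor. Itgax was at least 10.7-fold lower, Tyrobp at least 9.40-fold, Batf3 at least 3.32-fold, Flt3 at least 3.06-fold, Fcer1g at least 2.67-fold and Xcr1 at least 2.66-fold. The median log2 difference of the 10 genes was -3.17 with unmeasured arrays at the floor, beside 0 over the 8596 genes measured on any array.

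Between the CD4 arrays the genes split. Irf8 (3.07-fold), Plek (at least 3.40-fold), Mpeg1 (at least 3.13-fold) and Tyrobp (2.45-fold) were at least 2-fold lower on knockout CD4, 4 of 10 against 5.06% of all genes. Plbd1 was 2.09-fold higher, 1 of 10 against 1.36% of all genes, at signals of 215.3 on knockout CD4 and 102.9 on wildtype CD4. Fcer1g was 1.48-fold lower, and Itgax read 102.7 on knockout CD4 against 77.9, below the floor, on wildtype CD4. Batf3, Flt3 and Xcr1 were below the floor on both CD4 arrays and have no fold. Under quantile normalization and median scaling Tyrobp was no longer 2-fold apart, with log2 differences of -0.96 and -0.98. The 4 genes lower on knockout CD4 were also those for which both wildtype arrays were at least 2-fold above both knockout arrays, a pattern held by 1.14% of all genes. For Plek both calls depend on the probe set. Another of its probe sets read 81.0 on knockout CD4 against 108.7 on wildtype CD4, at least 1.16-fold, and 120.5 on knockout CD8. The remaining Plek probe set was at least 2.50-fold lower on knockout CD4 than on wildtype CD4.

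**Figure D3:**
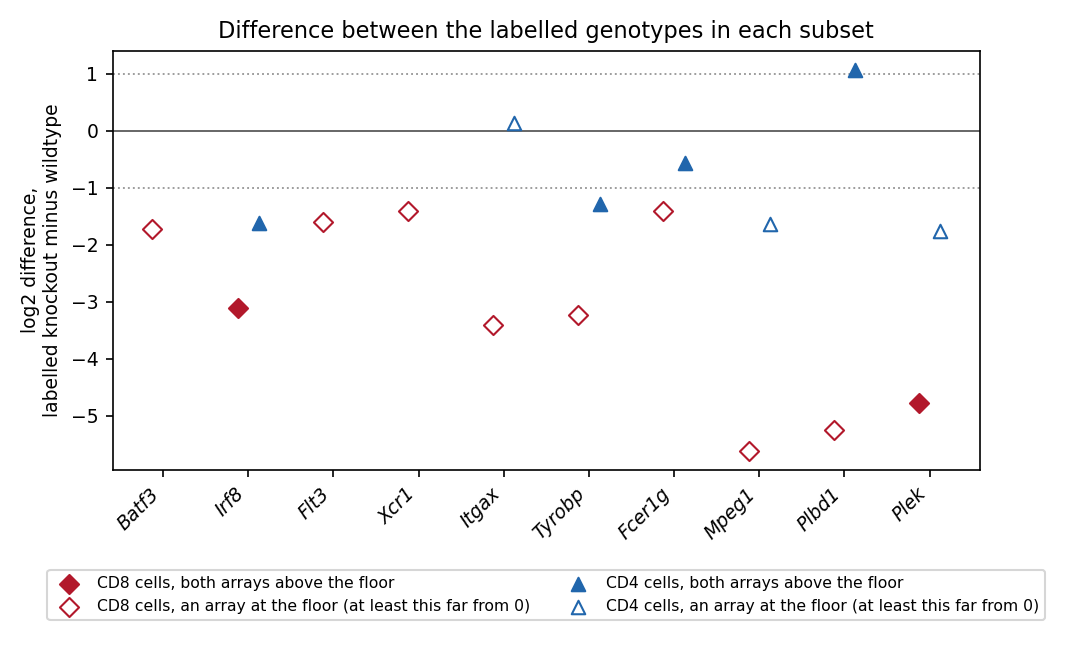
Log2 difference, labelled knockout minus labelled wildtype, of the probe set used for each gene, in CD8 cells (red diamonds) and CD4 cells (blue triangles). Open symbols have an array at the floor and are lower limits; no CD4 symbol is drawn for Batf3, Flt3 and Xcr1, and dotted lines mark 2-fold. All CD8 values lie below -1, from -1.41 for Xcr1 to -5.62 for Mpeg1, while CD4 values run from -1.77 for Plek to 1.07 for Plbd1.

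Between the subsets, wildtype CD8 was at least 2-fold above wildtype CD4 for 9 of 10 genes, against 2.15% of all genes, and lower for 0, against 3.46%. The choice of the genes for standing out on wildtype CD8 fixes this direction too. The size was uneven: 34.7-fold for Plbd1, 15.7-fold for Mpeg1, at least 10.7-fold for Itgax, 10.01-fold for Plek, 3.70-fold for Tyrobp, 2.93-fold for Irf8 and 1.01-fold for Fcer1g. Between the knockout arrays, by the probe set used for each gene, 0 genes were at least 2-fold higher on knockout CD8, against 1.35% of all genes. Plbd1 was at least 2.29-fold lower on knockout CD8 than on knockout CD4, 1 of 10 against 0.88% of all genes. Irf8 was level there by the probe set used for the gene (1.04-fold). Its other probe set was 2.20-fold higher on knockout CD8, at 305.8, than on knockout CD4, at 139.1. These comparisons share arrays with those between the labelled genotypes.

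Other genes of dendritic and phagocytic cells were read from lists chosen with earlier results of these data known, and they are described by counts beside the 0.888% of all genes that stood out on wildtype CD8. Of 7 further type 1 dendritic cell genes, 4 stood out. Between the CD8 arrays 4 of the 7 were at least 2-fold lower and 1 higher on knockout CD8, against 2.77% and 0.791% of all genes. Their median log2 difference was -1.61. Between the CD4 arrays 2 of the 7 were lower and 0 higher on knockout CD4, against 5.06% and 1.36%, with a median of 0. The adhesion gene Cadm1 read 60.8 on knockout CD8 against 620.9 on wildtype CD8, and 5.3 on knockout CD4 against 78.0 on wildtype CD4. Naaa, which encodes a lysosomal amidase, read 1957 on wildtype CD8, Cd24a 1015.5 and the sorting nexin gene Snx22 285.7. Itgae, the CD103 chain that these dendritic cells share with many CD8 T cells, read 3018 on knockout CD8 against 551.8 on wildtype CD8. Of 8 further genes of dendritic cells in general 0 stood out. Zbtb46, a transcription factor of conventional dendritic cells, read 126.4 on knockout CD8 against 243.4 on wildtype CD8. Ccr7, which naive T cells also express, read 12549 on knockout CD8 against 8380 on wildtype CD8, and 15625 on knockout CD4 against 4805 on wildtype CD4. Cd83, a maturation marker, read 459.1 on knockout CD8 against 1291 on wildtype CD8, and 267.8 on knockout CD4 against 2709 on wildtype CD4. Of 9 type 2 dendritic cell genes and of 8 plasmacytoid dendritic cell genes, 0 stood out. Sirpa, a type 2 marker, read 117.8 on wildtype CD8 and Itgam 103.7, both just above the floor. Klf4 and Ltb of the type 2 list were brighter. Klf4 read 914.5 on knockout CD8 against 511.3 on wildtype CD8, and Ltb 24366 against 24068.

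Among 17 further genes in the list of dendritic and myeloid transcription factors, 1 stood out, Spi1, which encodes PU.1. Spi1 read 163.4 on knockout CD8 against 339.3 on wildtype CD8, and 68.9 on knockout CD4 against 132.3 on wildtype CD4. Between the wildtype arrays, 5 of the 17 were at least 2-fold lower on wildtype CD8 than on wildtype CD4, against 3.46% of all genes. Of the 17, 2 were at least 2-fold higher, against 2.15%, and the median log2 difference was -0.76. Those lower were Irf4 (241.0 on wildtype CD8 against 1134 on wildtype CD4), Id2 (6048 against 15967), Nfil3 (124.8 against 372.1), Bcl6 (545.1 against 1180) and Cebpa (51.1, below the floor, against 428.5). Of 7 further cytokine receptor genes, Csf2ra, a chain of the GM-CSF receptor, stood out, at 101.2 on knockout CD8 against 462.1 on wildtype CD8. Csf1r, the gene of the M-CSF receptor of macrophages, was near level, at 202.0 on knockout CD8 against 238.1 on wildtype CD8. Of 5 further genes in the list of XCR1, its ligand and other chemokine receptors, Cx3cr1 stood out, at 50.9 on knockout CD8 against 391.3 on wildtype CD8. Xcl1, the XCR1 ligand that T and natural killer cells make, read 566.8 on knockout CD8 against 1554.5 on wildtype CD8, and 50.7 on knockout CD4 against 945.6 on wildtype CD4. Itgb2, the chain that pairs with CD11c, was high on all arrays, at 9447 on knockout CD8 against 13733 on wildtype CD8, and 11413 on knockout CD4 against 16080 on wildtype CD4. Of the 8 further integrin and ligand genes 0 stood out.

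Of 20 further genes around the ITAM adaptors 1 stood out, the kinase gene Btk, at 64.8 on knockout CD8 against 195.7 on wildtype CD8. The kinase gene Syk was near the floor, at 87.8 on knockout CD8 against 103.1 on wildtype CD8. Hcst, which encodes the DAP10 adaptor of NKG2D, was high on every array, at 5037 on knockout CD8 against 6287 on wildtype CD8, and 4618 on knockout CD4 against 5957 on wildtype CD4. Of 15 further genes of the phagocyte lysosome, granule and oxidase, 5 stood out: Lyz1, Lyz2, Cst3, Cd68 and Ctsh. Cst3, which encodes cystatin C, read 3533 on knockout CD8 against 15156 on wildtype CD8, and 3452 on knockout CD4 against 2905 on wildtype CD4. Laptm5 and Ctss, which T cells also express, were not higher on wildtype CD8 by 2-fold. Ctss read 12094 on knockout CD8 against 9708 on wildtype CD8. Other genes of the list went the other way. Ncf1 read 657.9 on knockout CD8 against 286.1 on wildtype CD8. Cybb was above the floor only on wildtype CD4, at 325.6. Lgmn was lowest on wildtype CD8, at 135.4, and highest on knockout CD4, at 883.4. Between the CD8 arrays 5 of the 15 were at least 2-fold lower and 1 higher on knockout CD8, against 2.77% and 0.791% of all genes. The median log2 difference of the list was -0.16.

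**Figure D4:**
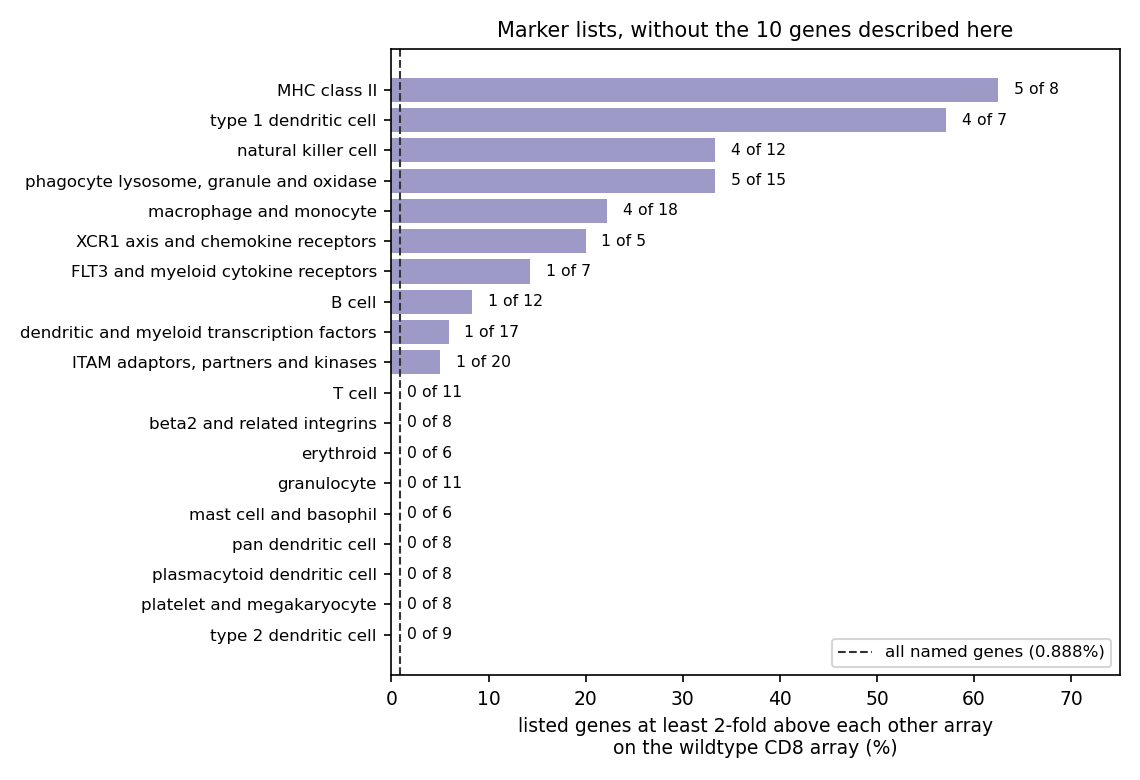
Share of the genes of each list, without the 10 genes described here, that were at least 2-fold above each other array on wildtype CD8; bars carry the counts, and the dashed line is the 0.888% of all named genes. MHC class II (5 of 8) and type 1 dendritic cell genes (4 of 7) have the highest shares, and 9 lists have a count of 0; lists overlap and were not tested.

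Markers of other cell types that moved with the 10 genes are given here, and their part in the result was not tested. Summed signals, here and below, add the values as deposited, also those below the floor that were treated as not measured. Of 8 MHC class II genes 5 stood out on wildtype CD8, and the summed signal of the 8 was 5380 on knockout CD8 against 50512 on wildtype CD8, and 6340 on knockout CD4 against 5648 on wildtype CD4. Of 18 macrophage and monocyte genes 4 stood out (Cd68, Lyz1, Lyz2 and Cx3cr1), with a summed signal of 1072 on knockout CD8 against 2553 on wildtype CD8, and 994 on knockout CD4 against 1637 on wildtype CD4. Cd14, Fcgr1, Mrc1, C1qa, C1qc, Marco and Ms4a7, which mark monocytes or macrophages, were below the floor on all 4 arrays. Of 12 natural killer cell genes 4 stood out (Eomes, Gzmb, Klra7 and Klra8), with a summed signal of 32061 on knockout CD8 against 48776 on wildtype CD8, and 6212 on knockout CD4 against 16814 on wildtype CD4. Klrd1 and Nkg7 carry most of these sums on the CD8 arrays; Klrd1 read 15978 on knockout CD8 against 13450 on wildtype CD8, and Nkg7 10407 against 14569. Between the CD8 arrays 6 of the 12 were at least 2-fold lower and 0 higher on knockout CD8, against 2.77% and 0.791% of all genes. Klrk1 read 113.0 on knockout CD8 against 1511 on wildtype CD8, and Il2rb 2304 against 8128, while Ncr1 and Klrc2 were below the floor on all arrays. Klra8, whose receptor signals through the Tyrobp product, read 3.5 on knockout CD8 against 220.6 on wildtype CD8, and 2.7 on knockout CD4 against 2.4 on wildtype CD4. The probe set of Klra8 is of a kind that can also bind other transcripts, so its name is less sure.

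Of 12 B cell genes 1 stood out, Blk, at 77.1 on knockout CD8 against 199.9 on wildtype CD8. The summed signal of the 12 was 13754 on knockout CD8 against 12763 on wildtype CD8, and 17080 on knockout CD4 against 15845 on wildtype CD4, most of it from Ighm. The probe set of Ighm is also of a kind that can bind other transcripts. Ms4a1, Cd79a, Pax5, Fcer2a, Ebf1, Cr2, Vpreb3 and Blnk were below the floor on all 4 arrays. In each comparison between the labelled genotypes 2 of the 12 were at least 2-fold lower on the knockout array and 0 higher, with 4 of the 12 measured on any array. Of all genes 2.77% were lower and 0.791% higher on knockout CD8, and 5.06% and 1.36% on knockout CD4. Cd22 read 76.3 on knockout CD8 against 614.6 on wildtype CD8, and 154.0 on knockout CD4 against 1124 on wildtype CD4. Cd79b read 737.5 on knockout CD8 against 759.1 on wildtype CD8, and 57.1 on knockout CD4 against 305.1 on wildtype CD4. Of 11 granulocyte genes 0 stood out and 8 were below the floor on all arrays, S100a8, S100a9 and Mpo among them. Of 8 platelet genes 0 stood out, 3 (Pf4, Gp9 and Ppbp) were below the floor on all arrays and 5 were above it on at least 1. Itga2b read 240.2 on knockout CD8 against 195.9 on wildtype CD8, and 142.9 on knockout CD4 against 303.8 on wildtype CD4. Itgb3 read 241.7 on knockout CD4 against 194.5 on wildtype CD4 and was below the floor on the CD8 arrays, and Gp5 lay between 95.5 and 122.0 on the 4 arrays. The summed signal of the 8, with values below the floor included, was 645.1 on knockout CD8 against 599.9 on wildtype CD8, and 731.9 on knockout CD4 against 920.0 on wildtype CD4. Of 6 mast cell and basophil genes and 6 erythroid genes 0 stood out.

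The genes with the largest margins besides the 10 were of several kinds. Gzmm, a granzyme gene of cytotoxic lymphocytes, led all genes, at 190.1 on knockout CD8 against 4443 on wildtype CD8, and 89.5 on knockout CD4 against 79.9 on wildtype CD4. Next came Klra7, a killer lectin receptor gene, then H2-Eb1, H2-Ab1, Cd74 and H2-Aa, all of MHC class II presentation, and the granzyme gene Gzma among them. They were followed by Lyz1, the chemokine gene Cxcl9, Tbc1d8, Hfe, Cadm1, Aif1, G0s2 and Slamf8. Margins of these 15 ran from 5.52-fold to 23.4-fold, and those with all 3 other arrays below the floor are lower limits. The probe sets of Klra7, H2-Aa and Lyz1 (x type) and of H2-Ab1 and Aif1 (s type) are of kinds that can also bind other transcripts, so their names are less sure.

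The genes most like each of the 10 were found by Euclidean distance between log2 profiles centred over the 4 arrays, among genes above the floor on the same arrays. Those nearest to Itgax were Tbc1d8 (0.48), Napsa (0.92) and H2-Q10 (1.07), of 37 candidates. Irf8 was nearest to Adam8 (0.33), Lrrk1 (0.66) and Marcks (0.70), of 6881. Tyrobp and Plbd1 shared their nearest genes, Ctsh and Alox5ap, at 1.05 and 1.15 for Tyrobp and 2.18 and 1.83 for Plbd1, of 112. Plek was nearest to Ctla2b (1.36) and the granzyme gene Gzmb (1.45), of 170, and Fcer1g to Gpr137b (0.30), of 112. No candidate came close to Mpeg1, whose nearest gene was Gem at a distance of 2.80, of 172. For Batf3, Flt3 and Xcr1 the floor sets 3 of the 4 values, so likeness means only a like level on wildtype CD8. Their nearest genes were Cdk14, Snx22 and Reep1. The floor also sets 2 of the 4 values of Itgax and of Mpeg1. Itgax on knockout CD4, at 102.7, was close to the floor of 93.9, so likeness to it rests mostly on the level on wildtype CD8. With 4 arrays behind each distance, these are descriptions.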

How the data were processed

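RNA of T cells sorted from the spleens of mice, with 2 mice pooled per sample, was hybridised to 4 Affymetrix MOE430A_2.0 arrays, per the labels. The deposited values are signal intensities per probe set; GCOS 1.4 and MAS5 are named in the submitters' processing notes, with no other step named there. The 2% trimmed mean was 1000 on each array, so the deposited values appear scaled to a common level. Of 22690 probe sets, 64 controls were left out; 20380 had 1 symbol in the platform annotation, 691 several (not used) and 1555 were not listed. Current names came from RefSeq (GRCm38.p6), which matched 20351.

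Each gene was read from its probe set with the highest mean log2 signal. Signals below the 40th percentile (93.9) were set to it before log2, and a gene was counted where arrays were at least 2-fold apart. With 1 array per group and genes chosen from these values, no test was run. The genes and the 19 lists were chosen with earlier results of these data known. Named genes are the 10, Gfi1, Cd44, Cd4 and Cd8a, the 15 others with the largest margin on wildtype CD8, the nearest 3 to each of the 10, and, of each list, those standing out with up to 4 more. Added after their values were seen were Cd8b1, Itgae, Itgam, Itgb2, Hcst, Syk, Csf1r, Laptm5, Ctss, Ncf1, Cybb, Lgmn, Cd22, Cd79b, Cd83, Zbtb46, Klrk1, Itgb3 and Gp5. So were the transcription factor genes lower on wildtype CD8 and the markers below the floor. Tables were computed in pandas 2.3.3 and numpy 2.4.6 under Python 3.11.15, and plots drawn with matplotlib 3.10.9. The 8 alternatives changed the floor, the scaling or the choice of probe set.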

Additional observations from a re-analysis of the deposited data

Results flagged for a closer look

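Differences between the labelled genotypes had opposite signs in the subsets for 2 of the 10 genes, and only for Plbd1 were both at least 2-fold. The share of all genes with opposite signs was not counted. This contrast between CD8 and CD4 cells was not tested, with 1 array in each group. Plbd1 had a log2 difference, knockout minus wildtype, of -5.25 in CD8 cells, a limit set by the floor on knockout CD8, and of 1.07 in CD4 cells, with both arrays above the floor. Itgax had -3.42 in CD8 cells and 0.13 in CD4 cells; each is a limit with 1 array at the floor, and the CD4 value rests on 102.7 on knockout CD4 against a floor of 93.9.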

How the results depend on the processing

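The floor was the setting that moved these results. With it at the 60th percentile, 5 of 10 genes (Irf8, Itgax, Mpeg1, Plbd1 and Plek) stood out on wildtype CD8, against 9; 5 were 2-fold apart between the CD8 arrays, against 10; 1, Irf8, between the CD4 arrays, against 5; 5 between the wildtype arrays, against 9; and 0 between the knockout arrays, against 1, since more signals lie below that floor. Over all genes the shares at the 60th percentile were 0.3%, 1.1%, 2.6%, 2.2% and 0.7%, in the same order. Each was lower than with the floor at 93.9. Between the knockout arrays the count was 5 with a floor at the 25th percentile and 6 with no floor. It was also 6 with log2 of the value plus 16. In these settings signals near the background enter the folds. The share of all genes 2-fold apart there rose too, from 2.2% to 7.2%, 23.3% and 13.8%, in that order. Quantile normalization and median scaling kept each of the 5 counts of the 10 genes within 1.5 times. So did the mean of probe sets, which could change only Irf8 and Plek, the genes with several probe sets. Leaving out multi-transcript probe sets could not change any count, since none of the 13 probe sets is of that kind. Of 272 values of single genes that were at least 2-fold as reported, counted over the 8 alternatives, 257 kept their sign and 251 stayed at least 2-fold. Values that an alternative could not change are included in these counts. Median scaling moved the median of the 6882 genes measured on every array to 0.21 between the CD8 arrays and 0.33 between the CD4 arrays, so changes under it are relative to that shift. No paired analysis was possible because each group has 1 array. Signals of Batf3, Flt3, Xcr1 and Fcer1g are too near the floor for their folds to be firm.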
